A study of Mus musculus with 91 samples.

Results

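Apelin and Cxcl12 signalling is represented by 6 genes among the 53379 genes counted: the ligand genes Apela, Apln and Cxcl12 and the receptor genes Aplnr, Cxcr4 and Ackr3. They were taken by name, and their values were read in epiblast-like and mesoderm-like cells of the mouse embryo. A cell was called epiblast-like when its Nkx1-2 level exceeded its Aldh1a2 level and mesoderm-like otherwise; Nkx1-2 encodes a homeodomain protein of the caudal epiblast, and Aldh1a2 encodes a retinoic acid synthesising enzyme of paraxial mesoderm. The rule placed 43 of the 91 cells in the epiblast-like class (47.3%, exact 95% interval 36.7 to 58%) and 48 in the mesoderm-like class.

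The cells were wild type, from the outbred MF1 strain, at the early head fold stage, around embryonic day 8. The caudal lateral epiblast, the tissue next to the node and the primitive streak where axial progenitors lie, was dissected with some of the mesoderm beneath it, pooled over embryos, dissociated and sorted by FACS into the wells of a plate. RNA was amplified by Smart-seq2, which reads whole transcripts and adds no molecular identifiers. The embryo of each cell is not named, so that all cells are 1 sample, no test between the classes was made, and the SD given with each mean describes the spread between cells.

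Levels are in CPM, counts scaled to a total of 1000000 in each cell. A cell had 1260653 to 3927737 counts in the epiblast-like class (median 2450073) and 709866 to 4439571 in the mesoderm-like class (median 2589802), and the median mitochondrial share was 3.79% for epiblast-like and 4.68% for mesoderm-like cells. The labels of the classes were checked with genes that the rule did not use. A difference of 2-fold or more was found for 7 of 8 epiblast markers, all 7 higher in the epiblast-like class, and for all 8 mesoderm markers, higher in the mesoderm-like class. The summed mesoderm markers ran between 0.629 and 873 CPM in epiblast-like cells, with a median of 102 CPM, and between 1074 and 4871 CPM in mesoderm-like cells. The summed markers of endoderm, node, endothelium or blood and lateral mesoderm had a median of 0 CPM in both classes. Single cells did have reads. Of 8 endoderm genes 5 had a read, and Sox17 was among those with none. Cer1 and Foxa2 were each read in 1 mesoderm-like cell, at 1711 and 122 CPM, and Hhex was read in 2 epiblast-like cells. Lateral or cardiac mesoderm markers were read in 20 of 48 mesoderm-like cells, up to 86.4 CPM, and the 3 measured ones were at least 2-fold higher in that class. Germ cell markers had a median of 0.453 CPM in epiblast-like and 0 in mesoderm-like cells, with highest sums of 91.2 and 176 CPM. Only 4 cells lay within 4-fold of the cut, the epiblast-like cell of well B10 and the mesoderm-like cells G3, E12 and D1 (cells are named by their wells). Cell B10 had 688 CPM of Nkx1-2 and 570 CPM of Aldh1a2, and its place in the epiblast-like class affects Aplnr.

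The apelin receptor, encoded by Aplnr, is a G protein-coupled receptor with a pair of short peptide ligands. These are apelin, from Apln, and Apela, also called Elabela or Toddler. In zebrafish, Apela and the receptor are needed for the movement of mesoderm and endoderm cells during gastrulation. Cxcl12 is a chemokine that attracts cells bearing the G protein-coupled receptor Cxcr4, for example germ cells and blood precursors. Ackr3 binds the same chemokine, recruits arrestin and removes it from the surroundings of the cell.

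Apela and Apln both encode precursors from which a short C-terminal peptide is released. Their coding sequences are shown because both peptides act on 1 receptor. The capitals mark the last 32 codons of Apela, the mature Apela peptide, and the last 13 codons of Apln, the apelin-13 peptide, before the stop codon. Both come from GENCODE transcripts of GRCm38 on the minus strand; the coding part of Apela has 165 bases between positions 65035666 and 65036965 of chromosome 8, and that of Apln has 234 bases between positions 48028299 and 48034505 of chromosome X.
Apela: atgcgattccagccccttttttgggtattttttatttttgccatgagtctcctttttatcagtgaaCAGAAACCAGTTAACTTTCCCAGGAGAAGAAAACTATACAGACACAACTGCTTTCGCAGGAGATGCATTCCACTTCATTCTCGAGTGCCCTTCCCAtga
Apln: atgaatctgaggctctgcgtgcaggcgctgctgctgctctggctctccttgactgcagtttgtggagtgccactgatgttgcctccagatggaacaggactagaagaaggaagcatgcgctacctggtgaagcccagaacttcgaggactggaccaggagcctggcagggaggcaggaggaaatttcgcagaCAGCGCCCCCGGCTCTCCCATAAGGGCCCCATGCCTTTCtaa

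Of the 1004 exon bases of Apela, 297 (29.6%) also lie in exons of the annotated gene Gm45886 on the same strand, and these hold all 165 coding bases. Gm45886 had 0 reads in all 91 cells. How reads in shared exons were counted is not stated in the sources used here, and the Apela counts may leave some reads out. The exons of the other 5 genes overlap no other annotated gene. Apela lies on chromosome 8 (65028417 to 65037336), Apln on chromosome X (48025146 to 48034853), Aplnr on chromosome 2 (85136225 to 85139923), Cxcl12 on chromosome 6 (117168535 to 117181367), and Cxcr4 (128588199 to 128592293) and Ackr3 (90203980 to 90216751) on chromosome 1.

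Ligands and receptors were on opposite sides of the split. Apela, Apln and Cxcl12 were higher in epiblast-like cells, and Aplnr and Cxcr4 were higher in mesoderm-like cells, while Ackr3, the scavenging receptor, was seen in few cells and was higher in the epiblast-like class, apart from the wells of rows A to D, where it was lower. All 6 genes differed at least 2-fold between the mean levels of the classes, with 1 CPM added to both means, 4 of them higher in epiblast-like and 2 higher in mesoderm-like cells. Among the 18054 genes with a read in at least 3 cells, 17.7% differed this much, with 8.18% higher in epiblast-like and 9.55% higher in mesoderm-like cells, and the median log2 ratio of these genes was 0.01. Among the 9283 genes with a mean of 10 CPM or more in either class these shares were 16.9%, 7.38% and 9.53%. Apela and Aplnr stand in a marker table that the study drew from these same cells, and their differences are not independent evidence.

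**Figure D1:**
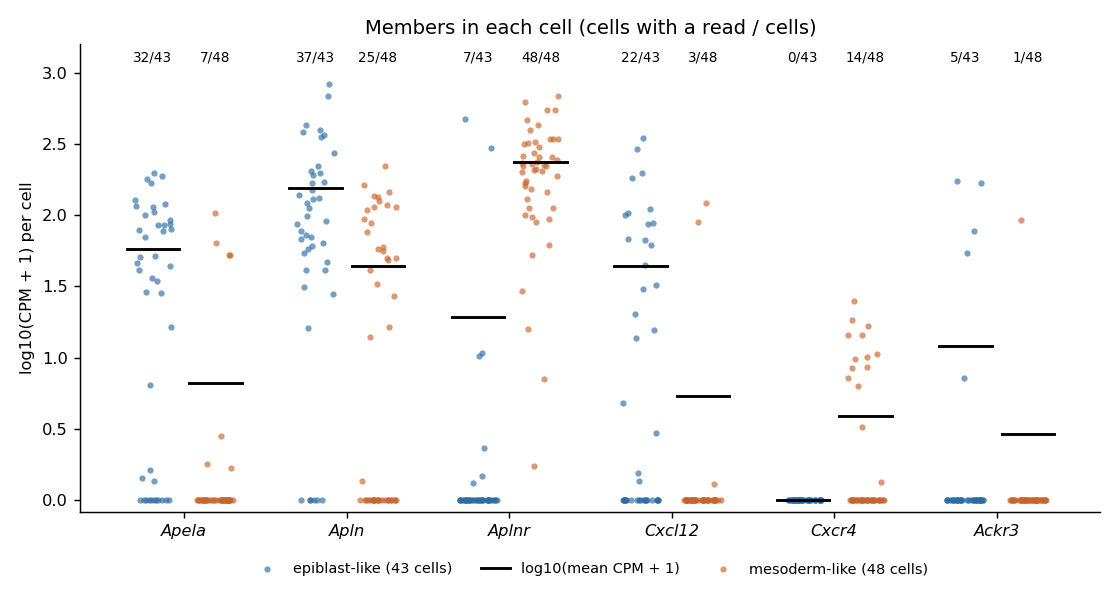
Level of each gene in each cell, as log10(CPM + 1), with epiblast-like cells in blue and mesoderm-like cells in orange; a point is 1 cell, the bar is log10(mean CPM + 1), and the figures at the top are cells with a read of all cells. Aplnr had reads in all 48 mesoderm-like cells and in 7 of 43 epiblast-like cells, and Cxcr4 had none in the epiblast-like class.

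Apela was read in 32 of 43 epiblast-like cells (74.4%, exact interval from 58.8 to 86.5%) and in 7 of 48 mesoderm-like cells (14.6%, 6.07 to 27.8%). It averaged 56.5 ± 57.8 CPM in epiblast-like cells, with a lowest value of 0, a median of 42.8 and a highest of 197 CPM. In mesoderm-like cells it averaged 5.69 ± 19.8 CPM with a median of 0 and a highest value of 103 CPM. The classes overlapped, since 4 mesoderm-like cells (A3, C12, D3 and E10) held 51.6 to 103 CPM, inside the range of the epiblast-like cells. The other 3 mesoderm-like cells with a read held 0.698 to 1.81 CPM. The log2 ratio of mean CPM + 1, epiblast-like over mesoderm-like, was 3.10, a fold of 8.59.

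Apln was the most widely read ligand. It had reads in 37 of 43 epiblast-like cells (86.05%, 72.1 to 94.7%) and in 25 of 48 mesoderm-like cells (52.1%, 37.2 to 66.7%). Its level averaged 154 ± 179 CPM in epiblast-like cells, with a median of 90.2 and a highest value of 828 CPM (cell D5), and 43.1 ± 56.6 CPM in mesoderm-like cells, with a median of 6.63 and a highest value of 219 CPM (cell D3). The lowest value was 0 in both classes, and the ranges overlapped widely. The log2 ratio was 1.82, a fold of 3.52. Among cells with a read alone, Apln averaged 179 ± 181 CPM in the positive epiblast-like and 82.7 ± 53.5 CPM in the positive mesoderm-like cells.

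Cxcl12 was read in 22 of 43 epiblast-like cells (51.2%, 35.5 to 66.7%) and in 3 of 48 mesoderm-like cells (6.25%, 1.31 to 17.2%). In epiblast-like cells it averaged 43.1 ± 78.9 CPM, with a median of 0.378 CPM, and the highest cells were B3 with 347 CPM and D7 with 291 CPM. In mesoderm-like cells it averaged 4.37 ± 21.4 CPM and came from E12 with 121 CPM, F6 with 88.6 CPM and G1 with 0.313 CPM. E12 is among the cells near the cut. The log2 ratio was 3.04, a fold of 8.21. It depended on the place on the plate: it was 6.19 in well rows A to D, where no mesoderm-like cell had a read, and 0.94, under 2-fold, in rows E to H, where all 3 positive mesoderm-like cells lay.

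The 250 bases before the start of the ligand genes are shown because these genes were higher in the same class. They come from RefSeq on GRCm38.p6, which gave a start for 5 of the 6 genes (no entry was matched for Aplnr), and are printed in the direction of transcription. The capitals mark the letters of searched motifs on either strand: CCAAT boxes, the GC box GGGCGG and the Lef/Tcf core with the letters CTTTGA. Adjacent matches can run together.
Apela, chr8:65037337-65037586, minus strand: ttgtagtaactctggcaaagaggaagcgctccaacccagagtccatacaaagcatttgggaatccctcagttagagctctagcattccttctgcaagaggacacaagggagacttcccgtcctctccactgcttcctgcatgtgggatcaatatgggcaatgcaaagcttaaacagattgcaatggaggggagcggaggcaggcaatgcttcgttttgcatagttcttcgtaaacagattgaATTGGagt
Apln, chrX:48034854-48035103, minus strand: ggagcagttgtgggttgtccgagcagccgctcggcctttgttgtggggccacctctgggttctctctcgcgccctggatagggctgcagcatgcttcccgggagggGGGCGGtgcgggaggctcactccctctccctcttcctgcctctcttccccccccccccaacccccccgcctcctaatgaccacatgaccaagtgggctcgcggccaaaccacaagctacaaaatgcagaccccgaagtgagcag
Cxcl12, chr6:117168285-117168534, plus strand: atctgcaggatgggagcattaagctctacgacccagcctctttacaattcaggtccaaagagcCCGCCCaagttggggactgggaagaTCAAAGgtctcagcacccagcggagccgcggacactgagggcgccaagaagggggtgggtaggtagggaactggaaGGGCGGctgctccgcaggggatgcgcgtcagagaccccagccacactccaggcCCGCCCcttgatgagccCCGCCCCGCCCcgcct

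The windows differ in composition. The share of G and C was 48% for Apela, 65.2% for Apln and 64.4% for Cxcl12. The GC box letters occur 5 times before Cxcl12, 1 time before Apln and not before Apela, and 32.7% of 32851 mouse windows of this length hold them. Apela has CCAAT letters 8 bases before its start, as do 33.8% of windows somewhere, and Cxcl12 holds the Lef/Tcf letters 162 bases before its start, as do 13.8%. The T-box site AGGTGT (11.8% of windows), the Snail E-box CAGGTG (17.2%) and the hypoxia response core ACGTG (16.6%) are in none of the 3 windows. These matches describe letters and not bound sites.

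Aplnr was the gene that every mesoderm-like cell shared. Over all wells its log2 ratio of mean CPM + 1 was the furthest from 0 of the 6 genes. That order did not hold within parts of the plate. Cxcl12 (6.19) was further from 0 than Aplnr (-3.05) in rows A to D. In rows E to H Ackr3 (4.36) was further from 0 than Aplnr (-4.23). Over summed counts with 1 CPM added, Aplnr (-3.59) was still the furthest, followed by Apela (3.39). Without the added CPM Cxcr4 had the larger fold, 113 against 12.6 for Aplnr. The 113 rests on a floor of 3 counts set for the epiblast-like class, which had no Cxcr4 read. Aplnr had reads in 7 of 43 epiblast-like cells (16.3%, 6.81 to 30.7%) and in all 48 mesoderm-like cells. The epiblast-like cells averaged 18.3 ± 83.8 CPM with a median of 0, and the mesoderm-like cells averaged 235 ± 156 CPM with a lowest value of 0.756, a median of 220 and a highest of 683 CPM (cell H6). In the epiblast-like class B10 with 473 CPM and F3 with 293 CPM held 97.3% of the summed level, and the next cell, H9, had 9.86 CPM. The log2 ratio was -3.61, a fold of 12.2. Without B10 and F3 it was -7.28.

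Very low values of Aplnr can be seen against those of the class genes. Of the 7 epiblast-like cells with Aplnr reads, 3 had 1 to 4 reads. Aldh1a2, which is highly abundant in the mesoderm-like class, had reads in 15 epiblast-like cells, and in 13 of them there were 1 to 4. With at least 5 reads asked for, Aplnr was present in 4 of 43 epiblast-like and 47 of 48 mesoderm-like cells. The source of reads this sparse was not tested. At the low end of the mesoderm-like class, cells E8, H4 and A12 had 0.756, 6.14 and 14.99 CPM of Aplnr, although E8 had the highest Aldh1a2 level of all, 3256 CPM.

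Cxcr4 was read in 0 of 43 epiblast-like cells (exact upper limit 8.22%, and 6.98% by the simpler limit of 3 cells), and in 14 of 48 mesoderm-like cells (29.2%, 16.95 to 44.1%). The mesoderm-like cells averaged 2.93 ± 5.66 CPM. The 14 positive cells averaged 10.04 ± 6.22 CPM, with a lowest value of 0.354, a median of 8.97 and a highest of 23.9 CPM (cell B11). Over the summed counts of each class, the mesoderm-like level of Cxcr4 was 113-fold above a floor of 3 counts over the epiblast-like class. Since several reads can come from 1 molecule, this floor is not a limit on the epiblast-like level. The log2 ratio of mean CPM + 1 was -1.97, and it depended on the added value: it was -0.37 with 10 CPM added. It was -2.44 in well rows A to D and just under 2-fold in rows E to H. Cxcr4 also marks early endoderm. Endoderm markers had reads in 2 of the 14 mesoderm-like cells with Cxcr4 and in 2 of the 34 without, the median of their sum was 0 in both, and Sox17 was at 0; the highest sum, 1711 CPM, was all Cer1 in cell D4, which had 9.69 CPM of Cxcr4.

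Ackr3 was the rarest of the genes. It was read in 5 of 43 epiblast-like cells (11.6%, 3.89 to 25.1%) and in 1 of 48 mesoderm-like cells (2.08%, 0.0527 to 11.1%). The epiblast-like cells were G2 with 172 CPM, H7 with 166 CPM, G11 with 76.4 CPM, H5 with 52.9 CPM and A4 with 6.21 CPM, and the mesoderm-like cell was A7 with 92.2 CPM. The mean was 11.02 ± 38.03 CPM in the epiblast-like and 1.92 ± 13.3 CPM in the mesoderm-like class, and the log2 ratio was 2.04. The direction did not hold across the plate. In well rows A to D, with A4 and A7 as the positive cells, the ratio was -1.73, and in rows E to H it was 4.36. The exact intervals of the shares overlap.

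Levels can be compared between genes only per length, as RPKM (CPM per kilobase of exon). The length was that of all annotated exons of a gene merged, 8176 bases for Cxcl12 and 1004 for Apela. Where the transcripts present are shorter than this, RPKM is too low, and the Apela counts may leave some reads out. In epiblast-like cells the order was Apela (56.3 ± 57.6), Apln (48.9 ± 56.8), Cxcl12 (5.27 ± 9.65), Aplnr (4.95 ± 22.7), Ackr3 (3.29 ± 11.4) and Cxcr4 (0). No neighbours in this order were further apart than the SD of the higher gene. In mesoderm-like cells Aplnr came first with 63.6 ± 42.1 RPKM, ahead of Apln with 13.7 ± 17.97, by more than its SD. Apela (5.67 ± 19.7), Cxcr4 (1.62 ± 3.13), Ackr3 (0.574 ± 3.97) and Cxcl12 (0.534 ± 2.62) followed and were not separated beyond theirs.

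**Figure D2:**
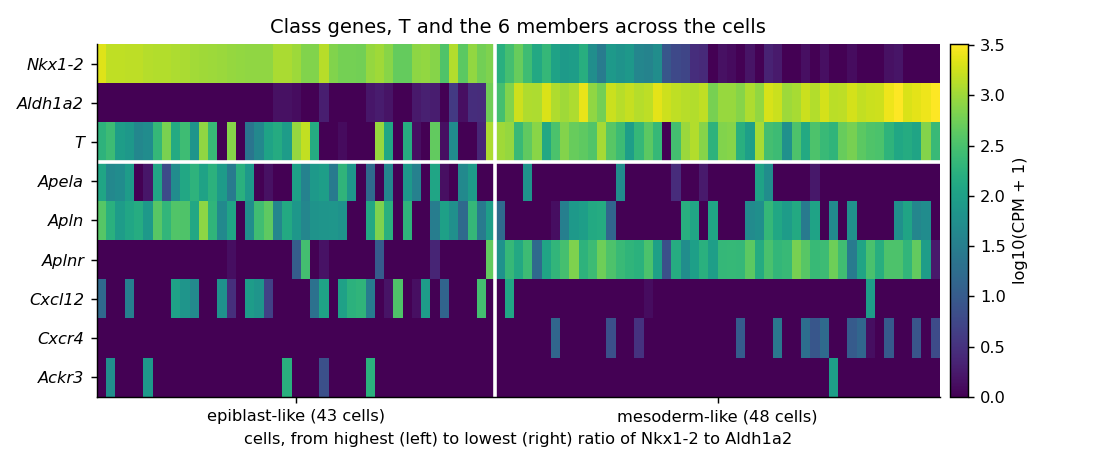
Each column is 1 cell, in order of the ratio of Nkx1-2 to Aldh1a2 from high (left) to low (right), and colour is log10(CPM + 1). Aplnr fills the 48 mesoderm-like columns, and Cxcl12 is scattered over the 43 epiblast-like columns with reads in 22 of them.

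The question of which cells hold ligand and receptor together was answered per cell. For apelin signalling, 33 of 43 epiblast-like cells (76.7%, 61.4 to 88.2%) had reads of Apela or Apln and none of Aplnr, 7 had ligand and receptor, 3 had neither and 0 had the receptor alone. In the mesoderm-like class 29 of 48 cells (60.4%, 45.3 to 74.2%) had ligand and receptor, 19 (39.6%) had the receptor alone and 0 had a ligand alone. With at least 5 reads asked for, ligand and receptor were together in 4 epiblast-like and 26 mesoderm-like cells.

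The ligand found together with Aplnr in mesoderm-like cells was mostly apelin. Apln was read with Aplnr in 25 of these cells and Apela in 7, and 3 had both peptides. These are all the mesoderm-like cells with each ligand, since every one had Aplnr. The 25 cells with Apln averaged 283 ± 184 CPM of Aplnr and the 23 without it 183 ± 96.8 CPM. The medians were closer, at 235 and 199 CPM. The Spearman correlation of the levels was 0.19 over 48 cells, which share 1 plate and pool. In the epiblast-like class all 7 cells with Aplnr reads had Apln, and 5 had Apela. These ligands were common in the class, and of its cells without Aplnr 83.3% had Apln and 75% had Apela.

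For Cxcl12 and Cxcr4 almost no cell held both, but the share of each gene alone left little room for it. Cxcr4 had no read in the epiblast-like class, which fixed the outcome there. In the mesoderm-like class Cxcl12 was read in 7.14% of the cells with Cxcr4 and in 5.88% of those without. In the epiblast-like class 22 cells had the ligand alone and 21 had neither. In the mesoderm-like class 13 cells had the receptor alone, 2 had the ligand alone, 32 had neither and 1 had both (2.08%). That cell, F6, had 88.6 CPM of Cxcl12 and 0.354 CPM of Cxcr4, and with at least 5 reads asked for no cell had both. All 14 cells with Cxcr4 also had Aplnr, since every mesoderm-like cell did, and the levels of the receptors had a Spearman correlation of 0.08 over 48 cells. Ackr3 was read with Cxcl12 in 2 epiblast-like cells, A4 and G2, and with Cxcr4 in none.

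**Figure D3:**
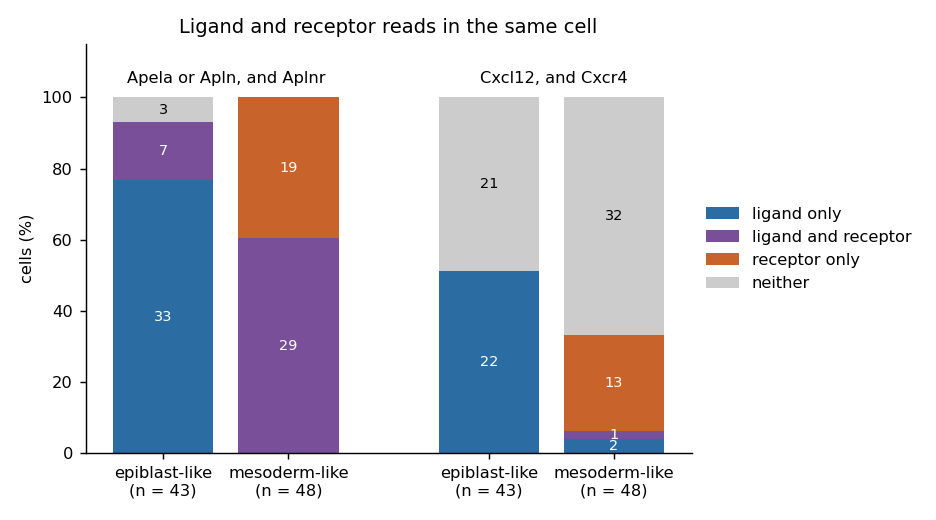
Share of cells of each class (y axis, %) with reads of the ligand alone, of ligand and receptor, of the receptor alone or of neither, for Apela or Apln with Aplnr (left) and Cxcl12 with Cxcr4 (right); the figures are numbers of cells. Ligand alone made up 33 of 43 epiblast-like cells for apelin, and the receptor was in every mesoderm-like cell.

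Each of the 43 epiblast-like cells had a read of at least 1 of the 3 ligands. All 3 were read in 15 cells, Apela and Apln in 14, Apln alone in 6, Cxcl12 alone in 3, Apela with Cxcl12 in 2, Apln with Cxcl12 in 2, and Apela alone in 1. Of the 48 mesoderm-like cells, 22 had Apln alone, 4 Apela alone, 3 Cxcl12 alone, 3 Apela and Apln, and 16 had no ligand. In epiblast-like cells the levels of Apela and Apln had a Spearman correlation of 0.16, Apela and Cxcl12 of -0.01, and Apln and Cxcl12 of -0.27 (n = 43 cells each), with no strong relation in any pair. Apln was read in 17 of the 22 epiblast-like cells with Cxcl12 and in 20 of the 21 without.

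Within the epiblast-like class, the members were set beside T. T (Brachyury) is a T-box transcription factor of the primitive streak and of the mesoderm that leaves it. It was chosen after its values were seen, and the following is a description of these cells without a test. T averaged 228 ± 366 CPM in epiblast-like cells, where 32 of 43 had a read, and 427 ± 317 CPM in mesoderm-like cells, where 47 of 48 did.

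The epiblast-like cells with Aplnr were mostly cells of high T. T was at 1536 CPM in F3, 1219 in B10, 927 in E2, 911 in H9, 750 in C10, 459 in D11 and 0 in A4. The median was 911 CPM in these 7 cells and 49.9 CPM in the other 36, and the ranges overlapped, since D5 and G8 had 845 and 649 CPM of T with no Aplnr read. Cells A4 and C10 had 1 Aplnr read each and D11 had 3, and B10, F3, H9 and E2 had at least 5. Of mesoderm genes, Tbx6, a T-box gene of paraxial mesoderm, was read in 5 of the 7 cells, with a median of 12.2 CPM in these and 0 in the other 36, of which 9 had a read. Mixl1, a homeobox gene of the primitive streak, had a median of 16.4 CPM in the 7 cells and 0 in the other 36. Its means were 102 and 5.78 CPM, and the higher one came mostly from B10 (499 CPM) and F3 (177 CPM). Fn1, encoding fibronectin, had medians of 89.6 and 9.94 CPM in these sets, and means of 68.5 and 45.1 CPM. Msgn1, a gene of nascent paraxial mesoderm, was at 44.1 CPM in C10, 5.03 in B10 and 2.67 in F3 and at 0 in the other 4. Cdh1, the epithelial cadherin gene, was between 69.95 and 622 CPM in the 7 cells, with a median of 226 CPM against 310 CPM in the other 36. A score, the mean log2(CPM + 1) of epiblast markers minus that of mesoderm markers, was -2.49 in B10 and -1.55 in C10. These were the only epiblast-like cells that it placed in the mesoderm-like class. The score holds Tbx6, Msgn1, Fn1 and Cdh1, so it is not independent of these values.

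Cxcl12 was read more in cells of low T, with exceptions. The 22 epiblast-like cells with Cxcl12 reads had a median of 11.7 CPM of T and a highest value of 750, and the 21 without had a median of 155 CPM and a highest value of 1536. The 6 cells with at least 100 CPM of Cxcl12 (B3, D7, G6, A1, A4 and G12) had 0 to 1.36 CPM of T. The next cell, G9, had 99.85 CPM of Cxcl12 and 137 CPM of T, and C8 had 66.3 CPM of Cxcl12 and 267 CPM of T, so the separation rests on where the limit is set. Conversely, these limits having been set after the values were seen, the 8 cells with at least 400 CPM of T had no Cxcl12 read apart from C10, with 1.99 CPM. The Spearman correlation of Cxcl12 with T was -0.48 over 43 cells, -0.64 over the 19 cells of well rows A to D, -0.31 over the 24 of rows E to H and -0.45 after every cell was thinned to 500000 counts. Depth was similar, with a median of 2464029 counts in cells with Cxcl12 reads and 2336009 in those without.

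The levels of Apln and T were positively correlated. The 37 epiblast-like cells with Apln reads averaged 264 ± 383 CPM of T, and in the 6 cells without (A8, A1, G6, B3, E1 and A11) T ran from 0 to 0.378 CPM. The Spearman correlation was 0.52 over 43 cells, 0.68 over the 19 of well rows A to D and 0.43 over the 24 of rows E to H. The cells highest in Apln, D5 with 828 CPM and E2 with 688 CPM, had 845 and 927 CPM of T. The cells highest in T, F3 and B10, had only 40.4 and 90.2 CPM of Apln, and H9 and D11 had 71.1 and 30.3 CPM. The median of Apln was 101 CPM in the 8 cells with at least 400 CPM of T and 85.8 CPM in the other 35. In addition, G5 had 219 CPM of Apln and no T read. Apela levels had little relation to T, with a correlation of 0.12.

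**Figure D4:**
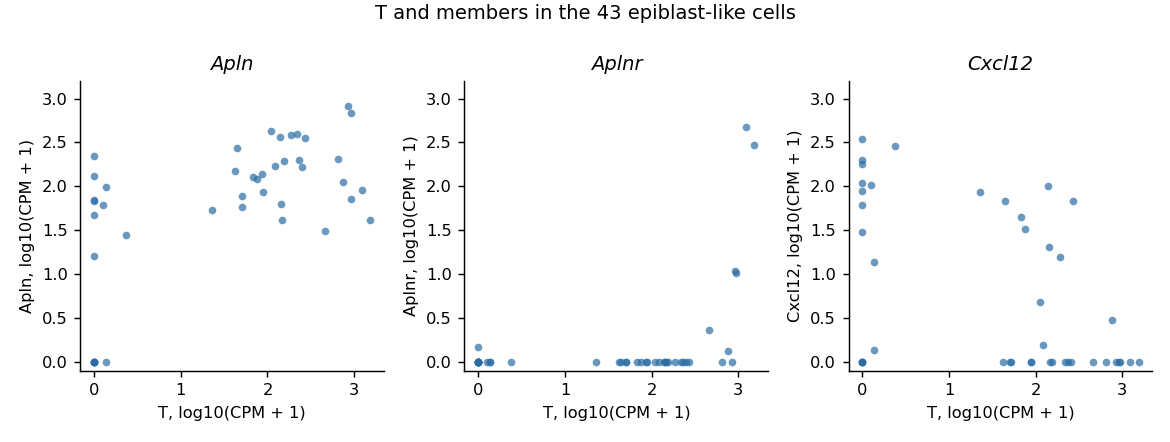
Level of Apln, Aplnr and Cxcl12 (y axes) against T (x axes), all as log10(CPM + 1), in the 43 epiblast-like cells; a point is 1 cell. The 6 cells with the most Cxcl12 have 0 to 1.36 CPM of T, and the next, G9, has 137 CPM. Aplnr appears at the right, where T is high, with the exception of cell A4. Cells A4 and C10 have 1 Aplnr read each and D11 has 3.

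Among mesoderm-like cells, Cxcr4 was set beside the same kind of genes. The 14 cells with Cxcr4 averaged 16.1 CPM of Nkx1-2 and 287 CPM of T, and the 34 without averaged 65.1 CPM of Nkx1-2 and 484 CPM of T. Fn1 averaged 788 CPM in the cells with Cxcr4 and 552 CPM in those without. All these ranges overlapped, with Spearman correlations of Cxcr4 with Nkx1-2 of -0.27, with T of -0.23 and with Fn1 of 0.33 over 48 cells. Aplnr averaged 235 CPM both in cells with Cxcr4 and in those without.

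Other genes of the pathways were examined as 7 lists with 136 genes, of which 85 had a read in at least 3 cells. Past 2-fold, 11 (12.9%) were higher in epiblast-like and 16 (18.8%) in mesoderm-like cells, beside 8.18% and 9.55% of all measured genes in those directions. With a mean of at least 10 CPM in either class asked for, 10 were higher in each class. In the peptide processing list, 0 of 6 measured genes were higher in epiblast-like and 3 in mesoderm-like cells, with a median log2 ratio of -0.92. Of the 3, Pcsk5 had reads in 4 mesoderm-like cells only, and Mme in 2 cells of each class. With a mean of at least 10 CPM asked for, 1 of 3 genes was higher in mesoderm-like cells. Furin, a protease that cleaves precursors of secreted peptides, averaged 6.74 ± 10.3 CPM among epiblast-like cells and 25.2 ± 27.2 CPM among mesoderm-like cells.

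The G protein and arrestin list was even between the classes, with 1 of 16 genes higher in epiblast-like and 1 in mesoderm-like cells and a median log2 ratio of -0.07. Gnai2, for an inhibitory G protein subunit, averaged 86.6 ± 65.7 CPM among epiblast-like cells and 96.6 ± 71.5 CPM among mesoderm-like cells; it was named after its values were seen. Grk3, a kinase that desensitises G protein-coupled receptors, was past 2-fold, with 3.14 ± 10.3 CPM among epiblast-like cells and 43.3 ± 77.1 CPM among mesoderm-like cells. Reads of Grk3 were in 9 of 43 epiblast-like and 24 of 48 mesoderm-like cells. Gnai1, for another inhibitory subunit, was just past 2-fold in the other direction (log2 ratio 1.05), with 60.9 ± 90.5 CPM among epiblast-like cells and 28.9 ± 59.8 CPM among mesoderm-like cells; it too was named after its values were seen.

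The list for Cxcl12 binding and cleavage holds mainly heparan sulphate proteoglycans, their synthesis and proteases. It also holds Mif, Adm and Cd164, which are outside these groups and were each under 2-fold. Its genes moved in both directions, with 3 of 21 measured higher in epiblast-like and 4 in mesoderm-like cells. The median log2 ratio was 0.01. Gpc3, a glypican, averaged 361 ± 222 CPM among epiblast-like cells and 2050 ± 705 CPM among mesoderm-like cells and was read in every cell. Its relative Gpc4 had the opposite pattern, with 45.97 ± 55.6 CPM among epiblast-like cells and 8.54 ± 28.5 CPM among mesoderm-like cells, and so did the syndecan gene Sdc4, with 66.2 ± 71.9 CPM in the epiblast-like and 16.3 ± 27.2 CPM in the mesoderm-like class.

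Most other chemokine genes had few or no reads. Of 27 further ligand genes 8 had a read and 5 were measured, and of 21 further receptor genes 10 had a read and 3 were measured. Ccl25 averaged 9.40 ± 17.4 CPM in the epiblast-like and 7.37 ± 17.1 CPM in the mesoderm-like class. Cx3cl1 averaged 7.48 ± 25.6 CPM in the epiblast-like class, from 4 cells, and had no read in the other. Both were named after their values were seen. The most widely read ligand was Ccl27a, with 6.61 ± 8.12 CPM in 26 of 43 epiblast-like cells and 8.62 ± 12.8 CPM in 27 of 48 mesoderm-like cells. Among 12 measured receptors for other attractants, 2 were higher in epiblast-like and 6 in mesoderm-like cells, with a median log2 ratio of -0.61. S1pr5, a receptor for sphingosine 1-phosphate, averaged 0.682 ± 4.38 CPM among epiblast-like cells and 59.7 ± 74.4 CPM among mesoderm-like cells. Lpar1, a receptor for lysophosphatidic acid, averaged 42.98 ± 52.8 CPM among epiblast-like cells and 150.3 ± 122 CPM among mesoderm-like cells, while F2rl1, a protease-activated receptor, averaged 10.8 ± 16.7 CPM among epiblast-like cells and 0.484 ± 2.06 CPM among mesoderm-like cells.

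Of 22 measured effectors of cell movement, 4 were higher in epiblast-like and 1 in mesoderm-like cells, with a median log2 ratio of -0.19. The count was 2 in each direction when the cells were split by a score, the mean log2(CPM + 1) of epiblast markers minus that of mesoderm markers, which put 2 epiblast-like cells in the other class. Pak1, a kinase downstream of Rac, averaged 141 ± 96.9 CPM among epiblast-like cells and 54.4 ± 63.01 CPM among mesoderm-like cells, and Elmo1, an activator of Rac together with Dock proteins, averaged 37.97 ± 52.4 CPM in the epiblast-like class and 15.2 ± 31.8 CPM in the mesoderm-like class. Dock1, a partner of Elmo1, was instead higher in mesoderm-like cells, with 48.1 ± 40.5 CPM among epiblast-like cells and 112 ± 94.1 CPM among mesoderm-like cells.

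**Figure D5:**
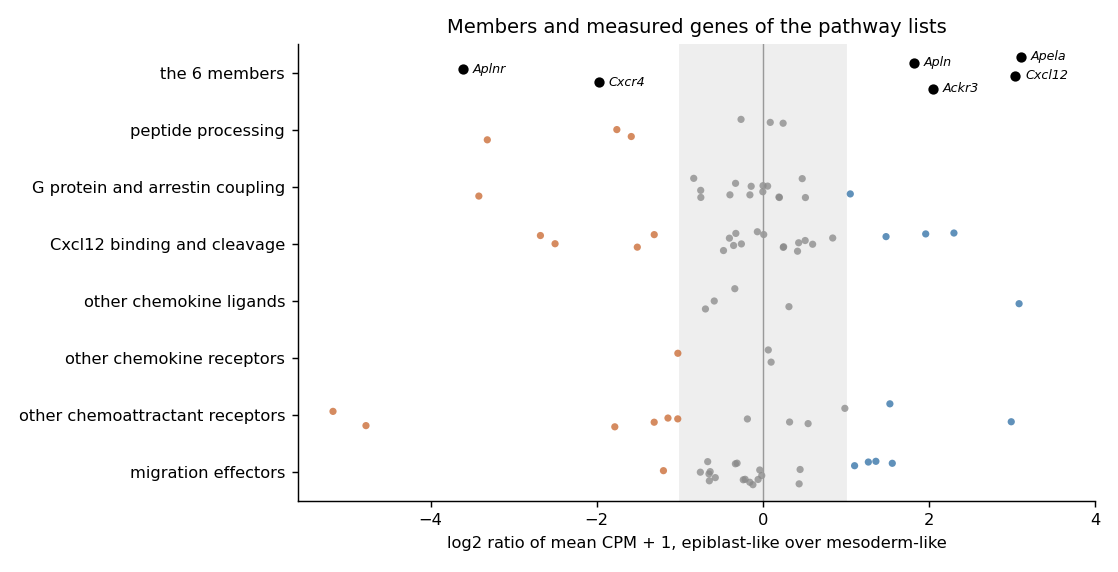
Log2 ratio of mean CPM + 1, epiblast-like over mesoderm-like (x axis), for the 6 members (black, with names) and for measured genes of 7 pathway lists (points, 1 per gene); the grey band is a difference of less than 2-fold, blue is higher in epiblast-like and orange higher in mesoderm-like cells. The 3 ligand genes lie to the right and Aplnr and Cxcr4 to the left, while 14 of 16 G protein and arrestin genes lie inside the band.

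For each member read in 20% or more of the cells in a class, the genes with the most similar pattern across those cells were listed by the Spearman correlation, out of 11691 genes in the epiblast-like and 11418 in the mesoderm-like class. In epiblast-like cells (n = 43) Apln was nearest to Unc5b (0.63), a netrin receptor gene, Slc2a1 (0.59), the glucose transporter gene, and Hist1h2ag (0.57). Apela was nearest to Mir5136 (0.56), Gm12174 (0.56) and Ptpn2 (0.54), and Cxcl12 to Luzp1 (0.56), Sft2d3 (0.55) and Zdhhc7 (0.53). In mesoderm-like cells (n = 48) Aplnr was nearest to Opa3 (0.64), Pigm (0.56) and Lsr (0.52), Apln to Gemin4 (0.55), Wnt6 (0.54) and Pde5a (0.50), and Cxcr4 to Gm17909 (0.53), Mical1 (0.53) and Wdr45 (0.52). These are the highest of many correlations over cells of 1 plate, and no member was the nearest gene of another.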

How the data were processed

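Single cells of the caudal lateral epiblast were sequenced by Smart-seq2. The authors aligned reads to GRCm38 (mm10) with HISAT2 and deposited counts of reads per gene from featureCounts, without normalization; the sources used here do not state versions, annotation or strand setting. Symbols were matched for 53274 of 53379 identifiers, and no pair of cells had identical counts. Exons of Nkx1-2 overlap the antisense gene Gm16764, and without strand their reads cannot be told apart. Exon lengths, overlaps and coding sequences came from the GENCODE annotation, promoters from RefSeq. The rule for named genes took all 6 members, up to 3 genes per pathway list (the largest ratios past 2-fold, read in at least 50% of cells of the higher class) and the 3 nearest genes by correlation.

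Counts were scaled to CPM in Python 3.11.15 (numpy 2.4.6, pandas 2.3.3, scipy 1.17.1). A gene was measured with a read in at least 3 cells. Fold changes use a pseudocount of 1 CPM. Intervals are exact (Clopper-Pearson, 95%) and cover counting error only, since several reads can come from 1 molecule. No cell was left out and no doublet caller was run. Scripts were tested on simulated data. Members and lists were chosen with earlier results of these data known. Alternatives covered the split, depth, plate position, normalization, pseudocount, read minimum and single cells.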

Additional observations from a re-analysis of the deposited data

How the results depend on the processing

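The log2 ratios of the 6 genes were recomputed under 11 alternatives each. Of the 66 values 61 moved by less than the SD of log2(CPM + 1) between cells of a class. That limit is wide, from 1.14 for Cxcr4 to 2.97 for Apln, whose ratio was 1.82. A value inside it can still have moved far, as Cxcl12 did from 3.04 to 0.94. The exceptions were Aplnr at -7.28 without cells B10 and F3 (an alternative chosen after seeing the data), Cxcl12 at 6.19 in well rows A to D, Cxcr4 at -0.37 with a pseudocount of 10 CPM, and Ackr3 at 4.36 in rows E to H and, with its direction reversed, at -1.73 in rows A to D. Ackr3 at 0.82 with the pseudocount of 10 CPM, and, in rows E to H, Cxcl12 at 0.94 and Cxcr4, were under 2-fold. The rows held 19 epiblast-like and 27 mesoderm-like cells (A to D) and 24 epiblast-like and 21 mesoderm-like cells (E to H).

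Of shares, rows A to D gave 68.4% of epiblast-like and 0% of mesoderm-like cells with Cxcl12; rows E to H gave 4.76% of mesoderm-like cells with Apela (and with Apela and Aplnr), 0% with Ackr3 and 0% with Apela and Apln. With 10 CPM asked for, Aplnr (and Apln with Aplnr) fell to 4.65% and Apela with Aplnr to 2.33% of epiblast-like cells, and Cxcr4 to 10.4% of mesoderm-like cells. The single mesoderm-like cell with Cxcl12 and Cxcr4 was lost (0%) in rows A to D, after thinning to 500000 counts, and with 5 reads or 10 CPM asked for. With a mean of at least 10 CPM, 10 pathway genes in place of 16 were higher in mesoderm-like cells and 10 in place of 11 in epiblast-like cells. The counts of the classes were then equal. Over all genes, 1570 in place of 3200 differed 2-fold, since fewer genes were tested. The marker score put 2 cells, B10 and C10, in the other class. The cause of the other shifts was not tested. No paired analysis was possible because the cells form 1 pool without replicate numbers.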
